A study of Mus musculus with 9 samples.

Results

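Plasma cells and naïve B cells sorted from the mouse spleen were compared to describe the whole distance between a resting B cell and an antibody-secreting cell, by function, surface and metabolism. The comparison used 3 libraries of each cell type, 6 of the 9 libraries of the series. A gene was included when its TPM (an abundance corrected for transcript length and scaled to the library total) was at least 1 in at least 3 of these 6 libraries, in the table from which the authors had left out immunoglobulin (Ig) genes. This gave 12392 genes of the 29995 there. All cells came from the spleens of B6.Blimp1+/GFP mice aged 12 weeks. In these mice 1 Prdm1 allele carries a green fluorescent protein (GFP) reporter of Blimp1. Every animal, including those that gave the naïve B cells, had received 50 µg of NP-LPS 4 days earlier. NP-LPS is lipopolysaccharide carrying the hapten NP, an antigen that drives B cells without T cell help. Naïve B cells were sorted as IgD high, B220 positive cells that did not bind NP. Plasma cells were NP-binding cells without IgD that were positive for GFP and CD138, with or without B220. Lineage markers of CD4 and CD8 T cells, erythroid cells and macrophages (F4/80) were gated out in both. Transcripts of Prdm1, Sdc1 (CD138) and Ighd therefore differ by the gate and are not described as findings. Ptprc, the gene of B220, was gated on in naïve B cells only, and is not described as a finding either. The NP-binding cells came from 3 animals. Whether the naïve B cells with the same replicate number came from the same animals is not given in the sources used here. Values below are TPM, listed in the order of replicates 1, 2 and 3.

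A naïve B cell circulates between blood and lymphoid follicles, carries its antibody as a surface receptor, and presents the antigen it takes up on MHC class II molecules. A plasma cell presents little antigen and pours out antibody, for which it needs an enlarged endoplasmic reticulum (ER). This takes a channel and signal peptidase for entry, glycosyltransferases, chaperones and disulfide isomerases for folding, a disposal route for failed chains, and coated vesicles that carry the product to the Golgi. The unfolded protein response (UPR) adjusts this machinery through the sensors Ire1, Atf6 and Perk, and the transcription factor Xbp1 acts downstream of Ire1. The programme is set by Blimp1, Irf4 and Xbp1, which displace the regulators of B cell identity.

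Of the 12392 genes, 1469 (11.9%) were higher and 3363 (27.1%) lower in plasma cells, 39.0% in all, with an adjusted p under 0.05 and more than a 2-fold change in limma. A log2 change here is plasma cells minus naïve B cells on the scale of log2(TPM + 0.5), so it understates changes of genes with low values, and its error is the standard error (SE) of the fit. Of the called genes, 256 rose and 399 fell more than 8-fold, and 50 rose and 73 fell more than 32-fold. The 2 groups of libraries did not overlap at 8838 genes (71.3%). All 6 libraries had a TPM of at least 1 at 9736 genes. Another 506 genes passed with every plasma cell library under 1 and 239 with every naïve library under 1. Genes of these last kinds could pass only through the group in which they were high. The median log2 change over all tested genes was -0.48. Scaling by median-of-ratios moved that median up by 0.49 and gave 2311 genes higher (18.6%) and 1817 lower (14.7%), so which direction holds more genes depends on the scaling. All 1469 genes called higher stayed higher under that scaling, 1817 of the 3363 genes stayed called lower, and none turned. Keeping Ig genes in the table moved the median by -0.98. It gave 537 genes higher and 7904 lower of 11654, and turned the sign of 19 of the 230 changes followed below that it holds. Of these, 4 had been called, those of Ero1lb (-0.08), Psmb5 (-0.10), Psmd8 (-0.01) and Ptpn22 (-0.16), and 15 had not, among them Ldha, which was called lower there (-1.19). List medians below should be set beside the -0.48 of all genes.

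Each library was examined before the lists were read. Libraries without Ig genes held 28500000 to 31700000 estimated reads in naïve B cells and 20200000 to 22100000 in plasma cells. Markers of a resting mature B cell were called lower at 15 of 15 genes, and markers of a plasma cell were called higher at 10 of 11, or 8 of 9 without the gate genes Sdc1 and Prdm1. The exception was the chemokine receptor gene Cxcr4, with a TPM of 14.6, 13.2 and 18.4 in naïve and 17.5, 18.6 and 15 in plasma cell libraries (log2 change 0.14 ± 0.20, adjusted p = 0.55). Among 39 hepatocyte genes, which summed to 0.0022 to 0.00303% of TPM in naïve libraries, the sum was 0.0103% and 0.00954% in plasma cell replicates 1 and 2 and 1.35% in replicate 3. In plasma cell replicates 1 and 2 most of this sum lay in Trf (37.6 and 42.3), Ass1 (25.6 and 21.7) and Apoa2. Apoa2 was at 25.2, 21.6 and 2682 in plasma cell replicates 1 to 3 and Apoc1 at 1.05, 0.526 and 2309. Albumin, Alb, was at 0.166, 0.081 and 660.5. Of 24 macrophage and monocyte genes 12 had a TPM of at least 1 in replicate 3 and at least 4 times that of both other plasma cell libraries. Among these were C1qb at 1.18, 0.747 and 15.9, Lyz2 at 2.85, 11.6 and 48.2 and the Kupffer cell gene Clec4f at 0.275, 0 and 3.37. Others did not stand out there, such as Spic, a factor of red pulp macrophages, at 4.22, 1.95 and 3.2 and Itgam at 4.94, 2.43 and 1.65. Of 20 granulocyte genes S100a8 met that rule, at 0.209, 1.46 and 18.7, and S100a9 came just short of it, at 2.07, 2.86 and 11.4, while Ly6g was at 2.27, 1.09 and 1.73 and Ngp at 0.457, 0 and 0. In that library 221 genes with a TPM of at least 10 stood at least 4 times above both other plasma cell libraries, 34 of them in the hepatocyte list, against 1 to 5 such genes in each of the other 5 libraries. Their excess made up 2.49% of its TPM. T cell, erythroid, granulocyte, stromal and pancreatic lists each summed to at most 0.0184% of TPM in every library, and macrophage genes to at most 0.0174%. The T cell sum was higher in plasma cells through Cd28 alone, while Lck fell from 56.7, 55.2 and 49.5 to 0.433, 0.264 and 0.995. NK and dendritic cell genes summed to 0.0589 to 0.0645% in naïve libraries and 0.102 to 0.139% in plasma cell libraries, and there the rise lay in Bst2 and Ly6c2. With the hepatocyte genes left out of the fit 1476 genes were higher and 3339 lower, and with library quality weights 1514 and 3321.

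The weight of replicate 3 was then measured by leaving it out. Without it, 1515 genes (12.2%) were higher and 3336 (26.9%) lower, of which 1411 and 3074 were shared with the full comparison, and no call turned. Several genes that liver also makes were among those that moved most. Apoe, which encodes apolipoprotein E, had a TPM of 248, 201 and 208 in naïve and 6.01, 5.69 and 1135 in plasma cell libraries. Its log2 change went from -2.62 (adjusted p = 0.11) with all libraries to -5.11 (adjusted p = 1.6e-06) without replicate 3. Gstm1, a glutathione transferase, was at 10.8, 13.8 and 14.1 in naïve and 2.17, 3.04 and 635 in plasma cell libraries. Its log2 change went from 0.45 (adjusted p = 0.83) to -2.12 (adjusted p = 0.0015). The tetraspanin Cd63 and the class I gene H2-Q10 were called lower only without replicate 3, with log2 changes of -1.90 and -2.39, among the 18 alternatives tried. Apoa2, not called with all libraries, was called higher without it (4.39) and under 5 of the 16 other alternatives that gave it a value. Transferrin, Trf, was higher either way, at 2.21, 2.45 and 0.879 in naïve and 37.6, 42.3 and 642 in plasma cell libraries, and missed the threshold without naïve replicate 3 (adjusted p = 0.055) and with a mean TPM of at least 10 (adjusted p = 0.12). Dock10, a guanine nucleotide exchange factor, was high in replicate 3 of both groups, at 320.3, 336 and 1031 in naïve and 389, 265 and 1937 in plasma cell libraries. Of the 40 lists described below, 30 moved by at most 1 gene in either direction without replicate 3. Lower genes became 14 in the TNF family, 7 in the cholesterol list, 4 in the redox list and 26 in the interferon list. Adhesion molecules then had 9 higher and 13 lower, and fatty acid and phospholipid genes 5 higher and 12 lower. The other 4 are given with their lists.

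**Figure D1:**
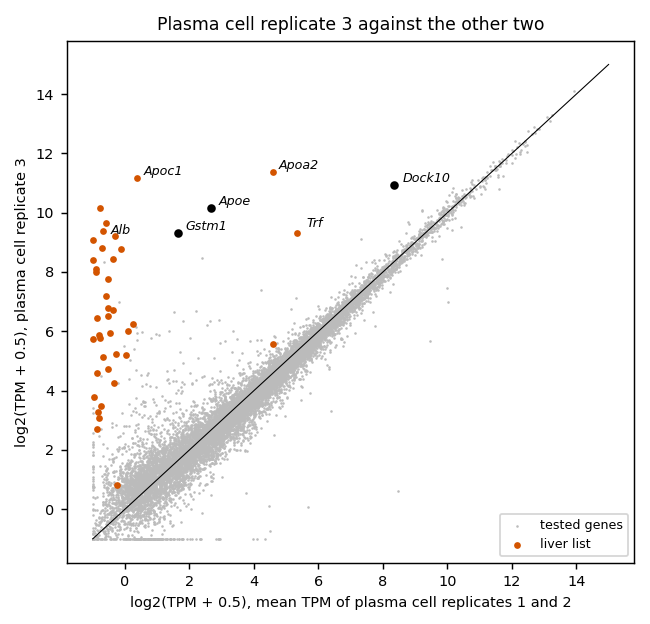
TPM in plasma cell replicate 3 (vertical axis) against the mean TPM of replicates 1 and 2 (horizontal axis), both as log2(TPM + 0.5), for the tested genes (grey), the 39 genes of the hepatocyte list (orange) and 3 further genes (black); the line marks equal values. Most genes lie along the line, and liver genes such as Apoa2, Apoc1 and Alb lie far above it.

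Function was described first, through 5 lists of ER and secretory genes that together held 225 tested genes. Of these, 141 were higher and 6 lower in plasma cells, with a median log2 change of 1.53. Their share of TPM went from 1.8% ± 0.0547 to 14.3% ± 0.21 (SD, n = 3), 7.94 times as much in plasma cells, with single libraries at 1.77, 1.77 and 1.86% in naïve B cells and 14.4, 14.5 and 14.1% in plasma cells. In such bulk samples fewer cells of a type and less RNA per cell cannot be told apart, and a share gives no amount per cell. With Ig genes in the denominator the plasma cell share was 5.79%, and 81 of these genes were called higher and 37 lower.

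**Figure D2:**
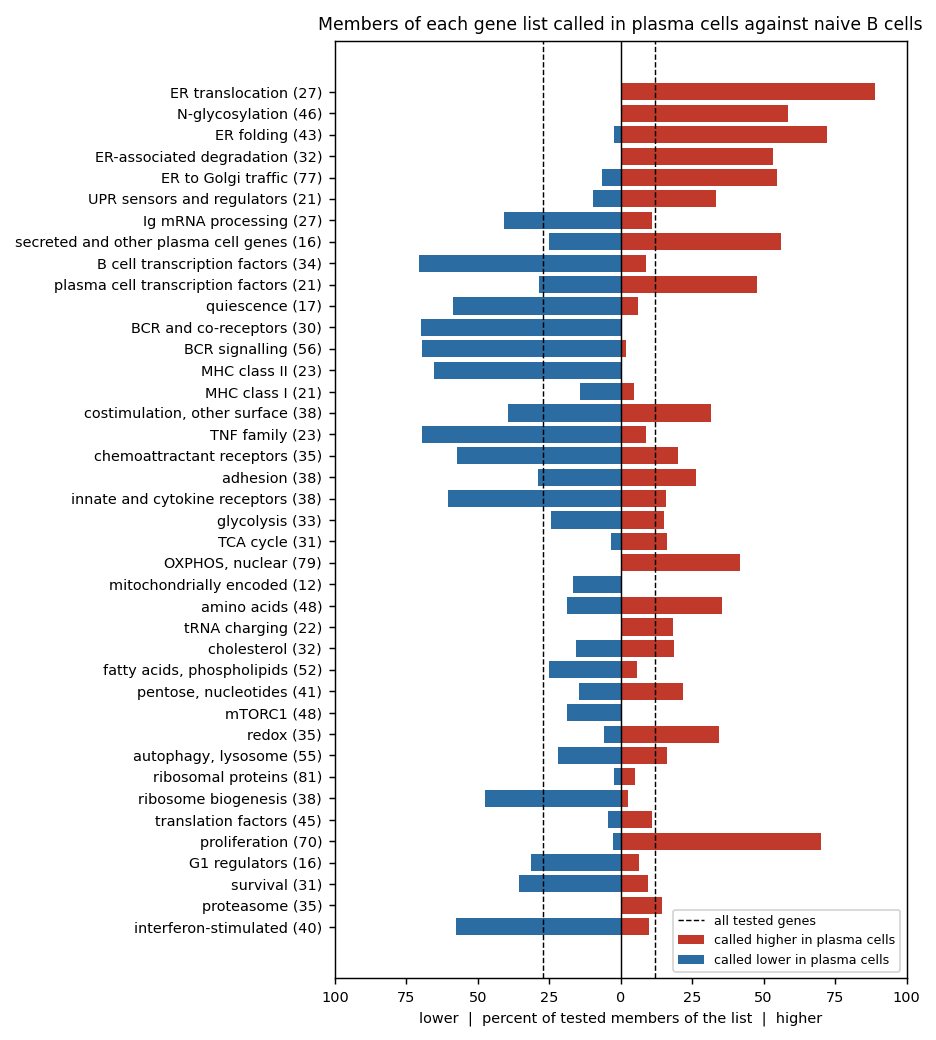
Percent of the tested members of each gene list that were called higher (red, right) or lower (blue, left) in plasma cells than in naïve B cells; the number of tested members is in parentheses and dashed lines mark the shares over all tested genes, 11.9% higher and 27.1% lower. ER lists extend to the right, and lists of B cell identity, receptor signalling and antigen presentation extend to the left.

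Entry into the ER showed the most uniform change of the function lists, with 24 of 27 genes higher, none lower and a median log2 change of 2.64. Sec61b, a subunit of the translocation channel, had a TPM of 254, 267 and 245 in naïve and 3262, 3126 and 3343 in plasma cell libraries. The signal peptidase subunits Sec11c and Spcs1 rose further, with Sec11c at 319, 341 and 327 in naïve and 5325, 5459 and 5393 in plasma cell libraries. Spcs1 was at 184, 204 and 212 in naïve and 4169, 4183 and 4369 in plasma cell libraries. No plasma cell library came near a naïve library at these 3 genes, and the log2 changes were 3.66 ± 0.09, adjusted p = 2.6e-10, 4.03 ± 0.07, adjusted p = 2.4e-11 and 4.40 ± 0.08, adjusted p = 3.6e-11. The translocon-associated proteins Ssr2 and Ssr4 rose by 4.31 and 3.84 on the log2 scale.

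N-glycosylation had 27 of 46 genes higher and none lower (median log2 1.40), but 13 and 8 in the table with Ig genes. Among the 27 higher genes were 9 subunits of the oligosaccharyltransferase, the enzyme that places the glycan on the nascent chain. Of these subunits, Rpn1, Ddost, Krtcap2 and Magt1 rose by 3.93, 3.67, 3.19 and 3.14 on the log2 scale. Ddost was at 127, 127 and 127 in naïve and 1664, 1714 and 1521 in plasma cell libraries, with little spread in either group. Gmppb, which makes the mannose donor GDP-mannose, rose from 22.8 ± 1.91 to 184 ± 15.2 (log2 change 2.97 ± 0.13, adjusted p = 1e-08). Of the enzymes that assemble the lipid-linked precursor some were higher and others were not called, among them the mannosyltransferase Alg12 at a log2 change of 0.39 (adjusted p = 0.15).

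Folding held the largest share of any function list in plasma cells. Of 43 tested genes 31 were higher and 1 lower, the median log2 change was 2.72, and the share went from 0.497% ± 0.0281 to 7.6% ± 0.0247. Mzb1 (chromosome 18, 35647267 to 35649367), a co-chaperone of Hsp90b1 in Ig assembly, had a TPM of 328, 367 and 407 in naïve and 15973, 14985 and 17695 in plasma cell libraries (log2 change 5.46 ± 0.12, adjusted p = 8.2e-11). It gained more TPM than any other called gene, and without it the folding list still went from 0.459% ± 0.0241 to 5.89% ± 0.125. Its partner Hsp90b1, the ER Hsp90 known as Grp94, was at 196, 214 and 264 in naïve and 8872, 8630.0 and 9544 in plasma cell libraries. Hspa5, which encodes the Ig-binding chaperone BiP, was at 492, 488 and 554 in naïve and 4891, 4894 and 4209.7 in plasma cell libraries. Both were well separated between the groups. Disulfide isomerases Pdia4, Txndc5, Pdia6 and P4hb rose by 4.29, 4.57, 3.44 and 2.99, and the prolyl isomerase Ppib, cyclophilin B, by 3.59 on the log2 scale. In proportion to the naïve level Selm, an ER selenoprotein, was among the steepest, at 0.848, 0.351 and 0.839 in naïve and 137, 109 and 113 in plasma cell libraries. Fkbp11, an ER prolyl isomerase, was at 22, 15.1 and 17.5 in naïve and 1724, 1581 and 1832 in plasma cell libraries. Naïve libraries were near the detection limit for Selm. Creld2 and Manf, small ER proteins that are induced when folding is strained, rose by 5.99 and 4.85 on the log2 scale. The 1 gene of the list that fell was Tmx2, a thioredoxin-related membrane protein, at 87.8, 87.2 and 102 in naïve and 41.7, 36.5 and 42.9 in plasma cell libraries (log2 change -1.19 ± 0.18, adjusted p = 0.00017); the call was lost under median-of-ratios scaling. The gene shares 739 bases with the gene Med19 on the other strand, and the kit does not mark strand. Genes named elsewhere share more with a gene on the other strand, such as Eaf2 with Iqcb1 (44337 bases), Manf with Vprbp (42681) and Ciita with Dexi (25888).

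Disposal of misfolded chains, ER-associated degradation, had 17 of 32 genes higher and none lower (median log2 1.33), but 11 and 8 in the table with Ig genes. Derl3, a derlin of the retrotranslocation complex, was at 9.97, 6.78 and 8.68 in naïve and 994, 1038 and 1062 in plasma cell libraries (log2 change 6.85 ± 0.15, adjusted p = 8.2e-11). The mannosidase-like lectins Edem1 and Edem2, the ligase adaptor Sel1l and the ubiquitin-conjugating enzyme Ube2j1 rose by 4.89, 4.19, 3.50 and 3.40 on the log2 scale. Edem1 was the uneven member, with plasma cell values of 953, 878 and 345.

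Traffic between ER and Golgi was more mixed, with 42 of 77 genes higher and 5 lower (median log2 1.21). Sec24d, an adaptor of the COPII coat, was at 1.6, 0.536 and 0.982 in naïve and 124, 153 and 130.1 in plasma cell libraries. Kdelr3, a receptor that returns ER residents, was at 0.0631, 0.121 and 0.178 in naïve and 27.5, 22.1 and 23.4 in plasma cell libraries. Lman1, the mannose lectin ERGIC-53, was at 16.7, 17.7 and 22.3 in naïve and 624, 614 and 637 in plasma cell libraries. Another COPII adaptor, Sec24b, fell from 26.5 ± 1.16 to 11.7 ± 3.17 (log2 change -1.19 ± 0.19, adjusted p = 0.00024), a call that was lost without plasma cell replicate 3 (-0.96) and under median-of-ratios scaling. The COPI subunit Copg2 fell from 41.9 ± 3.69 to 11.3 ± 4.73 (log2 change -1.91 ± 0.21, adjusted p = 1.7e-05). Under median-of-ratios scaling 56 members were higher and 1 lower, but in the table with Ig genes 15 were higher and 14 lower.

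Promoters of these genes were read because their members moved together and the known control elements of the UPR are short and well defined. The RefSeq windows run from 250 bases before to 50 after a gene start (build GRCm38.p6), and 9145 of the 12392 tested genes had one, as did 184 of the 225 secretory genes. The ER stress response element (ERSE), searched as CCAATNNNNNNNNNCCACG on both strands, was found at 17 of the 9145 genes (0.186%), at 10 of 1119 genes called higher (0.894%), 1 of 2556 called lower (0.0391%) and 6 of 5470 not called (0.11%). It was held by 0.119% of all 32851 windows of the RefSeq set. All 10 of the higher genes belonged to the folding list (8 of 37 with a window, 21.6%) or to the degradation list (2 of 24, 8.33%). The UPR element core TGACGTGG was found at 1.02% of all genes, 2.5% of those called higher, 0.626% of those called lower and 8 of 65 traffic genes (12.3%). The related ERSE-II was found at 7 genes, 4 of them higher. The elements did not follow the rise in every list. Of the genes of entry into the ER, 0 of 19 with a window held any of the 3 elements. Any element was found at 2 of 39 glycosylation genes, 1 of them called higher, and at 1 of 18 UPR regulators, which was not called. The ends of all 3 elements overlap, since CCACG is the reverse complement of CGTGG. A match of letters is a description and not a binding site, and the table was not complete. The elements were chosen as known elements of the UPR, and the folding and degradation lists hold known UPR genes. A higher share in these lists was therefore likely beforehand, and control by the UPR was not tested. The 10 genes called higher with an ERSE are shown with 12 bases on either side, on the strand of the gene, with the fixed letters in capitals, ordered by log2 change.

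Derl3, chr10:75893230-75893272, plus strand: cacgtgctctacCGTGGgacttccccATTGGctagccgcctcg

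Creld2, chr15:88819508-88819550, plus strand: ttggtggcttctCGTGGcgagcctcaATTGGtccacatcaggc

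Hsp90b1, chr10:86705626-86705668, minus strand: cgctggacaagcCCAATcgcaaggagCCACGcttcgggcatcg

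Dnajc3, chr14:118937815-118937857, plus strand: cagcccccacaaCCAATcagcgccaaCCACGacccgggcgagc

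Pdia6, chr12:17266479-17266521, plus strand: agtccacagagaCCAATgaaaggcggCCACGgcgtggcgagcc

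Hspa5, chr2:34772013-34772055, plus strand: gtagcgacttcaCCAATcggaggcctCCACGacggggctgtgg

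Calr, chr8:84847063-84847105, minus strand: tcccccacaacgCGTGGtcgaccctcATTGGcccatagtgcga

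Syvn1, chr19:6046520-6046562, plus strand: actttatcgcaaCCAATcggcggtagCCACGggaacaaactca

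Canx, chr11:50325788-50325830, minus strand: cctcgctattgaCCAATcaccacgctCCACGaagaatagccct

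Ero1lb, chr13:12565670-12565712, plus strand: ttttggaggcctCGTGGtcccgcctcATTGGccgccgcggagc

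Log2 changes of these 10 genes ran from 1.13 for Ero1lb, an ER oxidase, through 1.25 for the lectin chaperone calnexin, Canx, 1.43 for the ubiquitin ligase Syvn1, 2.70 for calreticulin, Calr, and 4.20 for the BiP co-chaperone Dnajc3, to 6.85 for Derl3. Hsp90b1 carried 2 ERSE matches in its window and the first is shown. The ERSE began 65 bases before the start of Hspa5, 44 before Syvn1 and 156 before Derl3. In Derl3, Creld2, Calr and Ero1lb the match lay on the opposite strand, where the letters read CGTGG first and ATTGG last. The element of Creld2 lies in a window shared with Alg12, which starts on the opposite strand. Creld2 had a TPM of 52.6, 50.1 and 54.8 in naïve and 3136, 3448 and 3585 in plasma cell libraries, and Alg12 had 12.1, 15.1 and 14.6 in naïve and 21.7, 18.7 and 15.5 in plasma cell libraries, so that of 2 genes with the same element between them 1 was called and the other was not. For the traffic genes the core element is shown at the 3 members with the largest rise in this list that have a match on an analysed window, and the complete window of Hspa5 follows for context.

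Sec24d, chr3:123267458-123267489, plus strand: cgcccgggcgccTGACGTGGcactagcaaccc

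Kdelr3, chr15:79516366-79516397, plus strand: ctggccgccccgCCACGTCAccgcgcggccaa

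Stx5a, chr19:8741421-8741452, plus strand: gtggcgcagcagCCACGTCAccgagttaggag

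Hspa5, chr2:34771840-34772139, plus strand: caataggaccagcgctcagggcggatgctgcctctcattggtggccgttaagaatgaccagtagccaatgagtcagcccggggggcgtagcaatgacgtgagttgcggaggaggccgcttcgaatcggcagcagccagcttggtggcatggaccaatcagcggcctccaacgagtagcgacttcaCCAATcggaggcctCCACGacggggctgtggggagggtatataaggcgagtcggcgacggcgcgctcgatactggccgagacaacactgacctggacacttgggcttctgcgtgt

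Stx5a, the syntaxin of ER-Golgi fusion, held 2 matches and rose by 1.51 on the log2 scale. At Kdelr3 and at the first match of Stx5a the letters lie on the opposite strand. Among genes with the core element outside the traffic list, Txndc5 rose by 4.57 and the degradation ATPase Vcp by 1.79 on the log2 scale. Traffic regulators Gbf1 and Arf1 also had a match and were not called, at log2 changes of 0.68 and 0.66.

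Sensors and regulators of the UPR had 7 of 21 tested genes higher (33.3%, against 11.9% of all tested genes), 2 lower (9.5%, against 27.1%) and a median log2 change of -0.06, and 8 and 0 under median-of-ratios scaling, but 4 and 11 in the table with Ig genes. Their share of TPM went from 0.0762% ± 0.00339 to 0.54% ± 0.055, and most of that rise lay in Xbp1 alone. The list summed to 684.3 to 743 TPM in naïve and 4570 to 5585 in plasma cell libraries, to be set beside the Xbp1 values below. Of the Ire1 branch, Ern1, which encodes Ire1, was at 2.1, 2.93 and 3.79 in naïve and 60.8, 58.6 and 44.6 in plasma cell libraries (log2 change 4.01 ± 0.25, adjusted p = 1.5e-07). Its target Xbp1 was at 118, 111 and 127 in naïve and 4239.9, 4564 and 3717 in plasma cell libraries. Atf6, the second sensor, was at 12.3, 14 and 16.9 in naïve and 58.6, 65.3 and 53.1 in plasma cell libraries (log2 change 2.00 ± 0.15, adjusted p = 8.7e-07). Creb3l2, a membrane-bound factor of the same family, rose from 2.61 ± 0.813 to 56 ± 7.75. Hspa13, an ER-resident Hsp70 relative kept in the same list, went from 4.31 ± 0.171 to 100.5 ± 3.01. Of the Perk branch, Eif2ak3, which encodes Perk, was at 10.9, 8.38 and 12.3 in naïve and 7.69, 8.16 and 6.02 in plasma cell libraries (log2 change -0.50 ± 0.21, adjusted p = 0.055). Log2 changes were 0.59 for Atf4, -0.44 for Ddit3 (CHOP) and 0.41 for Ppp1r15a (Gadd34), and none of these 4 genes was called. Crebrf and the amino acid sensor kinase gene Eif2ak4 were called lower, at log2 changes of -1.33 and -1.17, and neither call held without plasma cell replicate 3 (-0.95 and -0.97).

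Genes tied to Ig mRNA processing and stability had 3 of 27 higher and 11 lower (median log2 -0.79), and 3 and 5 under median-of-ratios scaling. The share called higher, 11.1%, lay near the 11.9% of all tested genes, and 40.7% were lower, against 27.1%. The 3 that rose were Fam46c, Ell2 and Hnrnpll. Fam46c, a poly(A) polymerase of ER-targeted mRNA, was at 1.85, 0.502 and 1.9 in naïve and 324, 366 and 290.1 in plasma cell libraries. The elongation factor Ell2, which favours the secretory Ig poly(A) site, was at 9.58, 11.8 and 11.9 in naïve and 162, 158 and 134 in plasma cell libraries. The splicing regulator Hnrnpll was at 0.968, 0.707 and 0.938 in naïve and 11.6, 11.3 and 9.19 in plasma cell libraries. In the same family Ell3 fell, at 120.0, 106 and 100.4 in naïve and 1.14, 1.22 and 0.592 in plasma cell libraries (log2 change -6.23 ± 0.36, adjusted p = 8.8e-08). The decay factors Zfp36l1 and Zfp36l2 fell by 2.38 and 1.73 on the log2 scale.

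Secreted, surface and other products known in plasma cells had 9 of 16 tested genes higher and 4 lower (median log2 2.73). Without Sdc1, which the gate fixes, 8 of 15 were higher. Besides the protease inhibitor Slpi and the lactonase Pon3, Chst1, a sulfotransferase, was at 0.363, 0.246 and 0.477 in naïve and 47.2, 71.1 and 50.6 in plasma cell libraries. Ly6c2, a GPI-anchored surface protein, was at 14.6, 21.5 and 17.1 in naïve and 693, 668 and 924 in plasma cell libraries. Those that fell were Il12a, Tgfb1, Pdcd1lg2 (PD-L2) and Ly6d. Il12a, a subunit of interleukin 12, was at 41.4, 41.2 and 41.8 in naïve and 2.17, 1.5 and 2.33 in plasma cell libraries and Tgfb1 at 28.6, 30.3 and 28.2 in naïve and 1.62, 1.89 and 1.41 in plasma cell libraries.

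**Figure D3:**
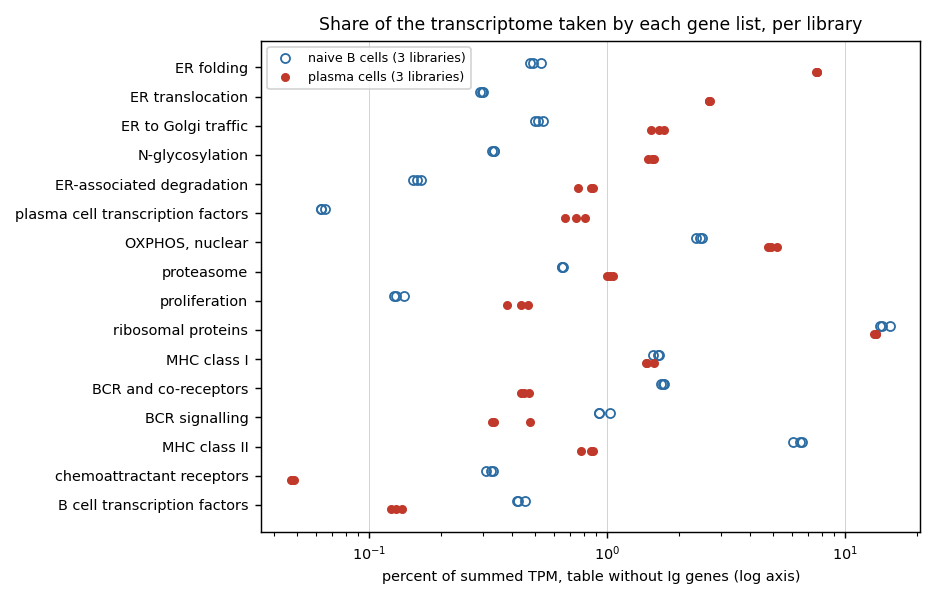
Percent of summed TPM taken by 16 gene lists in each of the 3 naïve B cell libraries (open blue circles) and each of the 3 plasma cell libraries (filled red circles), on a log axis. ER lists and plasma cell factors are higher in all 3 plasma cell libraries, MHC class II and chemoattractant receptors are lower in all 3, and MHC class I overlaps.

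Regulators were described next. Of 34 transcription factors of B cell identity 24 were lower and 3 higher (median log2 -2.33), and their share of TPM went from 0.432% ± 0.0186 to 0.13% ± 0.00692. Spib (chromosome 7, 44525993 to 44532071), an Ets factor of B cells, was at 382, 366 and 443 in naïve and 1.06, 1.0 and 1.38 in plasma cell libraries (log2 change -7.92 ± 0.25, adjusted p = 9e-10). Id3, an inhibitor of E proteins, was at 260.5, 289 and 265 in naïve and 0.956, 1.04 and 10.7 in plasma cell libraries, with plasma cell replicate 3 above the other 2. Irf8, an interferon regulatory factor, was at 509, 460.1 and 468 in naïve and 23.3, 11.1 and 13.2 in plasma cell libraries. The 3 that were higher were Mef2b, Bhlhe41 and the octamer coactivator Pou2af1 (OCA-B), which is needed for Ig promoters. Pou2af1 was at 188, 183 and 199 in naïve and 443, 494 and 445 in plasma cell libraries (log2 change 1.27 ± 0.09, adjusted p = 5.7e-07). At Bhlhe41 the groups overlapped, at 5.45, 7.06 and 17.2 in naïve and 16.6, 17 and 36.1 in plasma cell libraries, and its log2 change of 1.25 was not called without naïve replicate 1 (0.94), naïve replicate 2 (1.11) or plasma cell replicate 3 (0.89).

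Transcription factors known in plasma cells had 10 of 21 tested genes higher and 6 lower (median log2 0.98). Counts were 12 and 3 under median-of-ratios scaling, but 7 and 7 in the table with Ig genes. Without Prdm1, which the gate fixes, 9 of 20 were higher (median log2 0.75). The largest rise was that of Eaf2, a partner of the Ell elongation factors, at 8.93, 7.32 and 8.59 in naïve and 1956, 2199.8 and 1899 in plasma cell libraries (log2 change 7.84 ± 0.24, adjusted p = 7.6e-10). Of those that fell, Myc, the growth regulator that Blimp1 is known to repress, was at 72.3, 72.3 and 68.4 in naïve and 16.1, 9.66 and 11.8 in plasma cell libraries. Bhlhe40 was at 31.5, 29.1 and 23 in naïve and 1.25, 0 and 2.53 in plasma cell libraries. Factors that keep lymphocytes resting were lower at 10 of 17 genes and higher at 1, with Btg1, an antiproliferative factor, at 266, 216 and 340.4 in naïve and 2.49, 1.5 and 2.53 in plasma cell libraries. Slfn2, a Schlafen family member needed for quiescence, was at 332, 288 and 323 in naïve and 15.7, 11.4 and 17.2 in plasma cell libraries. Klf2, which keeps cells in circulation, was at 41.4, 38 and 44.4 in naïve and 5.2, 5.37 and 5.5 in plasma cell libraries. The 1 that rose was Foxo3 (from 4.29 ± 0.502 to 12.1 ± 1.28).

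At the surface, the B cell receptor and its co-receptors had 21 of 30 genes lower and none higher (median log2 -2.92), or 20 of 29 without Ptprc, the gene of B220. Cd22 (chromosome 7, 30865402 to 30880342), an inhibitory lectin, was at 695, 714 and 788 in naïve and 2.05, 2.8 and 4.83 in plasma cell libraries and Cd72 at 629.6, 608 and 586 in naïve and 3.99, 2.38 and 4.3 in plasma cell libraries. Faim3, now known as Fcmr and the Fc receptor for IgM, was at 1524, 1558 and 1548 in naïve and 8.7, 3.14 and 12.2 in plasma cell libraries. Plasma cell values of these 3 were far below every naïve value, with log2 changes of -7.69, -7.27 and -7.69. The signalling chains Cd79a and Cd79b fell less, by 2.87 and 1.71 on the log2 scale, and remained abundant, with Cd79b at 2993, 2927 and 2774 in naïve and 891, 952 and 831 in plasma cell libraries. Intracellular receptor signalling had 39 of 56 genes lower and 1 higher (median log2 -1.59), and 36 lower without plasma cell replicate 3. The adaptor Bank1, the proton channel Hvcn1 and the Src kinase Blk fell from 422 ± 24.2 to 19.6 ± 1.54, from 849 ± 13.7 to 42 ± 1.21 and from 211 ± 5.99 to 12.2 ± 2.21. The 1 gene that rose was the phosphatase gene Ptpn22, at 28.1, 29.4 and 34 in naïve and 61.3, 76.7 and 53.6 in plasma cell libraries (log2 change 1.04 ± 0.15, adjusted p = 0.00015). It lies at the threshold, and was not called without naïve replicate 1 (0.98) or plasma cell replicate 2 (0.90).

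MHC class II presentation had the largest loss of TPM of any list. Of 23 genes 15 were lower and none higher (median log2 -2.53), and the list went from 6.36% ± 0.308 to 0.837% ± 0.050 of TPM, with naïve libraries at 6.44, 6.62 and 6.02% and plasma cell libraries at 0.871, 0.86 and 0.779%. Ciita (chromosome 16, 10480059 to 10528418), the coactivator that all class II genes depend on, was at 186, 197 and 194 in naïve and 0.424, 0.455 and 0.747 in plasma cell libraries (log2 change -7.55 ± 0.24, adjusted p = 9e-10). The genes it controls kept different levels. Cd74, the invariant chain, was at 30472, 31412 and 28504 in naïve and 5472, 5402 and 4815 in plasma cell libraries and H2-Ab1 at 12567, 12811 and 11472 in naïve and 917, 923 and 859 in plasma cell libraries. H2-Aa was at 6895, 7150.0 and 6464 in naïve and 263, 264 and 270.2 in plasma cell libraries and H2-DMb2, a peptide editor, at 1835, 1886 and 1825 in naïve and 44.3, 45.1 and 51 in plasma cell libraries. Log2 changes of these 4 were -2.53, -3.78, -4.69 and -5.30. The largest fall of the list was that of H2-Oa, a chain of the peptide-exchange modulator H2-O, at 482, 533 and 429.8 in naïve and 0, 0.172 and 2.27 in plasma cell libraries (log2 change -8.95 ± 0.43, adjusted p = 2.3e-08), further than that of Ciita. March1, the ligase that turns class II over, also fell (log2 change -5.42). Class I presentation differed, with 17 of 21 genes not called, 3 lower and 1 higher (median log2 -0.33), and 2 and 3 under median-of-ratios scaling. In the table with Ig genes, however, 16 were called lower and none higher. H2-K1 was at 2777, 2911 and 2875 in naïve and 2208, 2237 and 2379 in plasma cell libraries (log2 change -0.33 ± 0.08, adjusted p = 0.0041) and B2m had a log2 change of 0.51. The class I-like gene H2-Q6 did fall, at 537, 559 and 549.8 in naïve and 81.6, 93.3 and 84.9 in plasma cell libraries, though the H2-Q genes are near copies and their division of reads is uncertain.

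Costimulatory and other activation molecules split, with 12 of 38 genes higher and 15 lower (median log2 -0.51). Counts were 14 and 12 under median-of-ratios scaling, but 7 and 23 in the table with Ig genes. Fcer2a (chromosome 8, 3681737 to 3694175), the low-affinity IgE receptor CD23 of follicular B cells, was at 796, 856 and 822 in naïve and 1.19, 0.823 and 2.02 in plasma cell libraries (log2 change -8.86 ± 0.25, adjusted p = 4.9e-10). Cd40, through which T cells help B cells, was at 238, 263 and 263 in naïve and 2.73, 1.76 and 4.14 in plasma cell libraries. Icosl, the ligand for ICOS on T cells, was at 127, 136 and 123 in naïve and 1.28, 1.15 and 1.3 in plasma cell libraries. Cd86 fell by 3.54 on the log2 scale, and its relative Cd80 was at 0.835, 0.726 and 1.11 in naïve and 2.08, 3.32 and 2.52 in plasma cell libraries (log2 change 1.16 ± 0.29, adjusted p = 0.0051), so that these 2 ligands of CD28 moved in opposite directions. Receptors of these ligands were higher. Cd28, itself known on plasma cells, was at 0.886, 0.456 and 0.73 in naïve and 133, 141 and 105 in plasma cell libraries. Ctla4, an inhibitory receptor for the same ligands, was at 0.883, 0.554 and 0.808 in naïve and 10.8, 14.9 and 13.7 in plasma cell libraries. Epcam, an epithelial adhesion molecule, was at 3.08, 3.29 and 3.95 in naïve and 60.4, 73.4 and 53.1 in plasma cell libraries, and the SLAM receptor Slamf7 rose from 52.2 ± 7.28 to 801 ± 76.6. The nucleotide-cleaving enzyme Cd38 fell by 5.03 on the log2 scale, at 251, 243 and 290.4 in naïve and 8.44, 6.24 and 8.02 in plasma cell libraries.

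**Figure D4:**
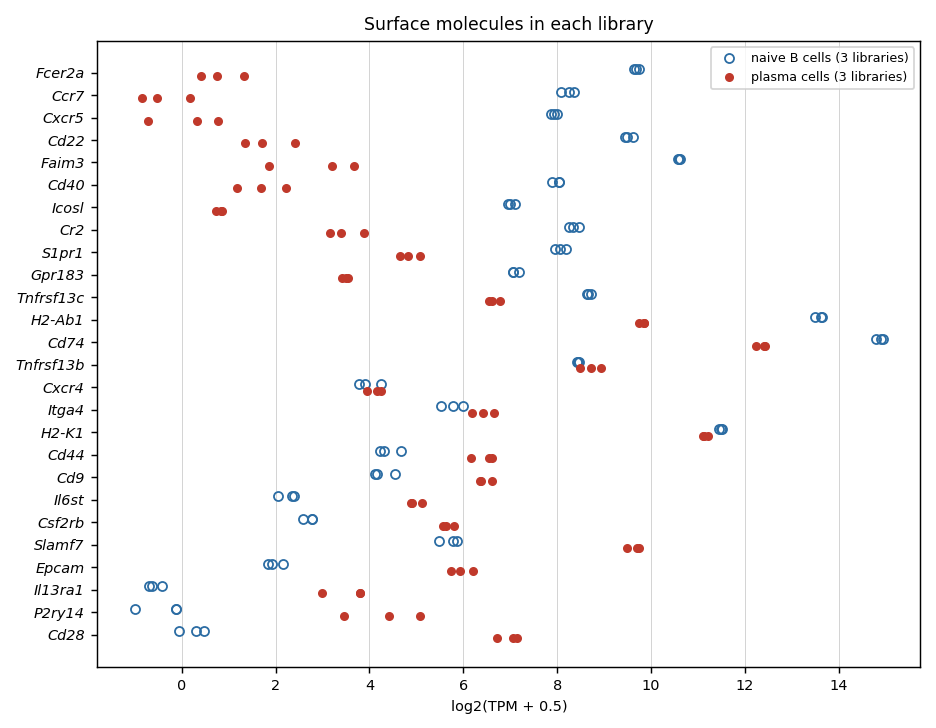
Levels of 26 surface molecules as log2(TPM + 0.5) in each of the 3 naïve B cell libraries (open blue circles) and each of the 3 plasma cell libraries (filled red circles). Genes at the top, from Fcer2a to Cd74, are lower in all 3 plasma cell libraries, Cxcr4 overlaps, and Cd44 to Cd28 at the bottom are higher in all 3.

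Among TNF receptors, ligands and adaptors 16 of 23 tested genes were lower and 2 higher (median log2 -1.32), and 11 lower under median-of-ratios scaling. Receptors for the survival ligands BAFF and APRIL went different ways. Tnfrsf13c, the BAFF receptor on which naïve B cells depend, was at 396, 400.4 and 420.1 in naïve and 93.1, 110.3 and 96.7 in plasma cell libraries (log2 change -2.02 ± 0.09, adjusted p = 1.8e-08). Tnfrsf13b, TACI, was at 349, 342 and 354 in naïve and 422, 491 and 358 in plasma cell libraries and was not called (log2 change 0.26 ± 0.11, adjusted p = 0.063). Tnfrsf17, BCMA, was among the largest rises of all. Lymphotoxins and TNF, which organise follicles, fell together, with Ltb at 1427, 1331 and 1296 in naïve and 3.48, 2.5 and 5.92 in plasma cell libraries. Lta was at 57.9, 70.0 and 63.9 in naïve and 0.174, 0.085 and 1.77 in plasma cell libraries and Tnf at 10.3, 15.8 and 12.1 in naïve and 0, 0 and 0.373 in plasma cell libraries.

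Chemoattractant receptors had 20 of 35 tested genes lower and 7 higher (median log2 -1.82), and the list went from 0.322% ± 0.0108 to 0.0476% ± 0.000723 of TPM. Ccr7 (chromosome 11, 99144196 to 99155077), which guides lymphocytes to T zones, was at 329.5, 272 and 306 in naïve and 0.0572, 0.195 and 0.639 in plasma cell libraries (log2 change -8.64 ± 0.32, adjusted p = 3.3e-09). Cxcr5, the follicle homing receptor, was at 232, 244 and 254 in naïve and 0.104, 0.748 and 1.21 in plasma cell libraries, and Gpr183 (EBI2), which positions activated B cells, at 133, 134 and 144 in naïve and 10.1, 11.2 and 10.8 in plasma cell libraries. S1pr1, the receptor for exit into blood, was at 289, 249 and 265 in naïve and 27.9, 33.1 and 24.8 in plasma cell libraries. Of the 7 that rose, P2ry14, a receptor for UDP-sugars, was at 0.414, 0 and 0.426 in naïve and 21, 33.2 and 10.5 in plasma cell libraries (log2 change 4.72 ± 0.63, adjusted p = 6.4e-05). Ccr10, a homing receptor of mucosal plasma cells, was at 0.124, 0 and 0.056 in naïve and 2.78, 1.76 and 1.26 in plasma cell libraries, and Cxcr3, a receptor for interferon-induced chemokines, at 2.83, 5.95 and 2.79 in naïve and 12.4, 8.55 and 28.7 in plasma cell libraries. Levels of Ccr10 stayed low in every library.

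Adhesion molecules had 10 of 38 tested genes higher, the gate gene Sdc1 among them, and 11 lower (median log2 -0.05). The share called lower, 28.9%, lay near the 27.1% of all tested genes, and 26.3% were higher, against 11.9%. Counts were 13 and 8 under median-of-ratios scaling, but 5 and 18 in the table with Ig genes. Lgals1, galectin 1, rose from 27.5 ± 2.23 to 340.3 ± 13, Bsg (basigin) from 142 ± 10.7 to 772 ± 50.1, and Cd9, a tetraspanin, from 18.9 ± 3.3 to 86.8 ± 8.67. Cd44, the hyaluronan receptor, was at 19.3, 18.2 and 25.1 in naïve and 93, 97.3 and 71 in plasma cell libraries (log2 change 2.03 ± 0.19, adjusted p = 3.5e-06). The gut homing integrin chain Itgb7 fell, at 222, 210.0 and 217 in naïve and 15.6, 11.4 and 6.46 in plasma cell libraries (log2 change -4.31 ± 0.22, adjusted p = 4e-08), while its partner Itga4 was at 45.4, 54.8 and 63.5 in naïve and 84.7, 100.4 and 72.2 in plasma cell libraries and was not called (adjusted p = 0.0042, log2 change 0.64). Lgals3, galectin 3, was called lower although the groups overlapped, at 16.8, 17.7 and 20.5 in naïve and 0.857, 1.45 and 23.4 in plasma cell libraries, and was not called without plasma cell replicate 1 (log2 change -1.47) or 2 (-1.72). Without plasma cell replicate 3, the library with liver transcripts, its log2 change was -3.53 (adjusted p = 9.7e-06).

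Toll-like and cytokine receptors had 23 of 38 tested genes lower and 6 higher (median log2 -1.53). Among the lower genes Il4ra, a chain of the interleukin 4 receptor, was at 34.2, 33.8 and 39.6 in naïve and 0.507, 0.525 and 1.66 in plasma cell libraries. Il21r was at 171, 167 and 179 in naïve and 2.87, 1.54 and 3.32 in plasma cell libraries and Il10ra at 91.6, 80.4 and 102 in naïve and 1.52, 2.02 and 1.79 in plasma cell libraries. Il13ra1 moved the other way, at 0.244, 0.122 and 0.143 in naïve and 13.3, 13.4 and 7.5 in plasma cell libraries (log2 change 4.11 ± 0.37, adjusted p = 2.9e-06), as did Il6st and Csf2rb. Il6st, the shared gp130 chain, was at 4.57, 3.67 and 4.74 in naïve and 29.3, 34.4 and 29.1 in plasma cell libraries. Csf2rb, a chain shared by several cytokine receptors, was at 5.48, 6.33 and 6.37 in naïve and 47.2, 55.3 and 48.8 in plasma cell libraries. Of the LPS receptor, Ly96 (MD-2) was higher at 16.7, 20.9 and 25.5 in naïve and 118, 119 and 134 in plasma cell libraries, while Tlr4 was at 8.49, 11.2 and 14.3 in naïve and 6.04, 7.63 and 6.42 in plasma cell libraries and was not called (log2 change -0.70 ± 0.23, adjusted p = 0.021). Tlr9 and Tlr1 fell, with log2 changes of -2.48 and -5.82.

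Metabolism was described through lists for each pathway. Nuclear genes of the respiratory chain were higher at 33 of 79 genes and lower at none, with a median log2 change of 0.87, and 77 of the 79 changes were above 0. Their share of TPM went from 2.44% ± 0.072 to 4.94% ± 0.234. The pattern was alike across complexes I, III, IV and V, with medians of 0.89, 0.86, 0.85 and 1.01. Ndufa1, a complex I subunit, was at 438, 413 and 414 in naïve and 2697, 3036 and 3045 in plasma cell libraries (log2 change 2.79 ± 0.08, adjusted p = 4.9e-10). Uqcrq of complex III was at 375, 378 and 341 in naïve and 1379, 1422 and 1748 in plasma cell libraries and Atp5g1, the c-ring of ATP synthase, at 299.7, 303 and 274 in naïve and 1091, 1022 and 1190.2 in plasma cell libraries. Sdha, the flavoprotein of complex II, was an exception at 269, 246 and 271 in naïve and 164, 163 and 133 in plasma cell libraries (log2 change -0.78 ± 0.11, adjusted p = 9.2e-05). The median lies near the 2-fold threshold, and the count went from 28 without plasma cell replicate 3 to 54 under median-of-ratios scaling, and was 17 under quantile normalization and 1, with 6 lower, in the table with Ig genes. Protein genes of the mitochondrial genome did not rise, with 2 of 12 lower, none higher and a median log2 change of -0.47. They varied in naïve B cells, at 3.62, 4.57 and 5.21% of TPM against 3.61, 3.64 and 3.55% in plasma cells, and the 2 calls were lost without plasma cell replicate 3 and under median-of-ratios scaling. In the table with Ig genes 12 were called lower and none higher.

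**Figure D5:**
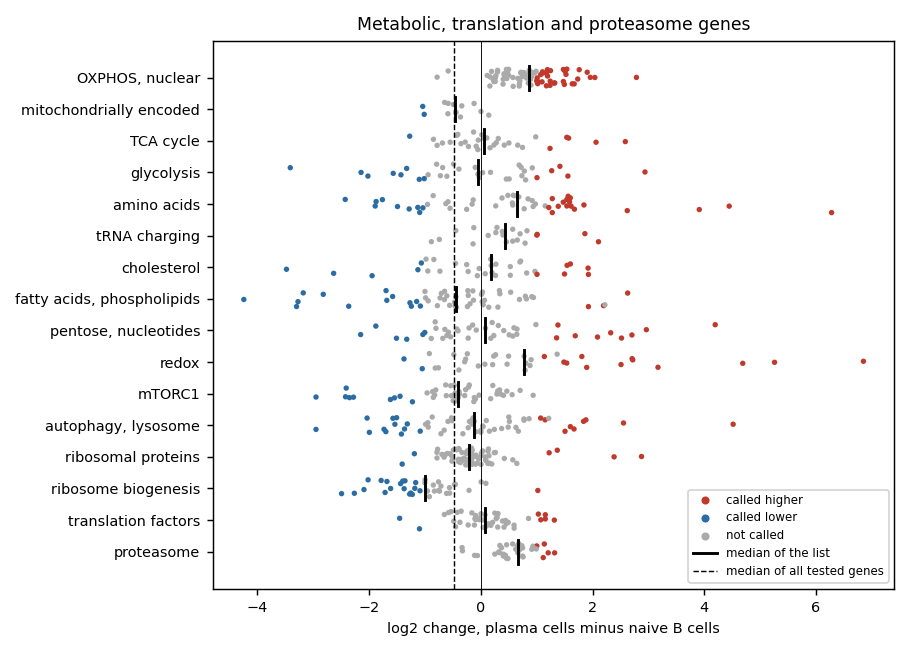
Log2 change (plasma cells minus naïve B cells) of every tested member of 16 metabolic, translation and proteasome lists; points are genes, coloured by call, short black bars are list medians and the dashed line is the median of all tested genes at -0.48. Points are spread vertically only for legibility. Respiratory chain and proteasome genes lie almost entirely right of the dashed line, and the median of ribosome biogenesis lies to its left, with 3 of its genes above 0.

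Glycolysis had 5 of 33 genes higher and 8 lower (median log2 -0.05), 12 and 4 under median-of-ratios scaling, and 1 and 18 in the table with Ig genes, so its direction depended on scaling. The shares, 15.2% higher and 24.2% lower, lay near the 11.9% and 27.1% of all tested genes. Glucose transporters Slc2a1 and Slc2a3 went from 28.7 ± 2.83 to 11.2 ± 1.5 and from 24.8 ± 4.65 to 8.97 ± 2.02, calls that were lost under median-of-ratios scaling, and the regulators Pfkfb3 and Pfkfb4, which set phosphofructokinase activity, fell, with log2 changes of -2.02 and -3.41. Among the enzymes, Pgk1 was higher at 78.8, 91.7 and 85.1 in naïve and 214, 214 and 193 in plasma cell libraries, and Ldha was at 413, 433 and 445 in naïve and 422, 445 and 459 in plasma cell libraries (log2 change 0.03 ± 0.09, adjusted p = 0.78). Bpgm, which makes 2,3-bisphosphoglycerate, rose most, by 2.94 on the log2 scale. Around the TCA cycle 5 of 31 genes were higher and 1 lower, and 8 and 0 under median-of-ratios scaling, but 1 and 18 in the table with Ig genes. Of the TCA genes 16.1% were called higher, near the 11.9% of all tested genes, and 3.2% lower, against 27.1%. Mpc2, a subunit of the mitochondrial pyruvate carrier, was at 82.1, 85.9 and 87.3 in naïve and 495, 506 and 548 in plasma cell libraries (log2 change 2.59 ± 0.10, adjusted p = 3.3e-09), and Mdh1, cytosolic malate dehydrogenase, at 307, 337 and 329 in naïve and 972, 1016 and 860.3 in plasma cell libraries. The 1 that fell was fumarase, Fh1, at 139, 123 and 134 in naïve and 49.9, 52.9 and 61.3 in plasma cell libraries, which was not called under median-of-ratios scaling.

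Amino acid genes were higher at 17 of 48 and lower at 9 (median log2 0.64). Under median-of-ratios scaling 28 were higher and 4 lower, and in the table with Ig genes 3 and 16. Pycr1 (chromosome 11, 120635712 to 120643769), the last enzyme of proline synthesis, was at 1.67, 1.59 and 1.99 in naïve and 186, 185 and 155 in plasma cell libraries (log2 change 6.28 ± 0.23, adjusted p = 3.1e-09). Asns, asparagine synthetase, was at 1.53, 0.60 and 1.99 in naïve and 48.9, 34.2 and 33.5 in plasma cell libraries. Slc7a3, a carrier of cationic amino acids, was at 0.311, 0.324 and 0.701 in naïve and 16, 11.6 and 13.3 in plasma cell libraries. Slc3a2, the CD98 heavy chain, rose from 49.6 ± 1.44 to 151 ± 11.5, while its partner Slc7a5 was uneven at 6.36, 9.52 and 10.3 in naïve and 31.7, 29.1 and 8.24 in plasma cell libraries and was not called (log2 change 1.15 ± 0.47, adjusted p = 0.053). It was called under 8 of the 18 alternatives, among them leaving out plasma cell replicate 3 (1.76). Glul, glutamine synthetase, fell by 2.42 on the log2 scale. Cytosolic tRNA synthetases were higher at 4 of 22 and lower at none (10 higher under median-of-ratios scaling), and 0 higher and 6 lower in the table with Ig genes. The share called higher was 18.2%, against 11.9% of all tested genes. The higher synthetases were led by Yars (from 41.6 ± 5.48 to 181 ± 16.5) and Nars (from 63.4 ± 5.52 to 232 ± 4.79).

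Cholesterol genes were higher at 6 of 32 and lower at 5 (median log2 0.18). These were 18.8% and 15.6%, against 11.9% and 27.1% of all tested genes. Under median-of-ratios scaling 12 were higher and 3 lower, and in the table with Ig genes 0 and 15. Synthetic enzymes Ebp and Fdps rose from 58.7 ± 2.47 to 225 ± 4.18 and from 44.2 ± 6.91 to 168 ± 11, and the sterol exporters Abcg1 and Abca1 fell from 43.7 ± 1.02 to 3.53 ± 0.63 and from 21 ± 2.19 to 2.97 ± 0.22. Fatty acid and phospholipid genes were lower at 13 of 52 and higher at 3 (median log2 -0.44), and 9 and 10 under median-of-ratios scaling, so that the share called lower, 25%, lay near the 27.1% of all tested genes. Scd1, the stearoyl-CoA desaturase, was at 209, 227 and 253 in naïve and 9.06, 8.21 and 21.3 in plasma cell libraries (log2 change -4.24 ± 0.25, adjusted p = 1.1e-07). The desaturase Fads1 was at 0.699, 0.81 and 0.748 in naïve and 4.81, 8.29 and 9.55 in plasma cell libraries (log2 change 2.63 ± 0.33, adjusted p = 4.3e-05). Carnitine palmitoyltransferase Cpt1a fell from 34.9 ± 1.37 to 7.63 ± 1.47.

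Nucleotide synthesis had 9 of 41 genes higher and 6 lower, against 15 and 3 under median-of-ratios scaling and 5 and 22 in the table with Ig genes. Rrm2, the S-phase subunit of ribonucleotide reductase, was at 16.5, 15.4 and 18.9 in naïve and 356, 353 and 258 in plasma cell libraries, while its p53-induced counterpart Rrm2b was at 25.8, 30.6 and 32.7 in naïve and 8.06, 7.8 and 7.31 in plasma cell libraries. A similar exchange between paralogs was seen in IMP dehydrogenase, with Impdh1 at 26.5, 23.3 and 24.7 in naïve and 125, 147 and 111 in plasma cell libraries and Impdh2 at 102, 127 and 119 in naïve and 40.5, 36.6 and 45 in plasma cell libraries. The mTORC1 list had 9 of 48 genes lower and none higher (median log2 -0.41), and 7 and 3 under median-of-ratios scaling. In the table with Ig genes 39 were lower and none higher. The share called lower, 18.8%, was under the 27.1% of all tested genes. The lower genes included Sesn1 (from 91.5 ± 2.39 to 17.1 ± 3.16) and Ddit4 (from 8.22 ± 1.6 to 1.29 ± 0.228), which restrain mTORC1, and Tfeb, a lysosomal transcription factor held back by mTORC1, fell from 94.7 ± 1.38 to 12 ± 1.78. Rragb, a Rag GTPase gene whose product helps to activate mTORC1, and Gatsl3 were called lower too. The activity of mTORC1 was not tested. Mtor itself had a log2 change of 0.35 and Rptor of -0.62, and neither was called.

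Redox genes were higher at 12 of 35 and lower at 2 (median log2 0.78), and 17 and 0 under median-of-ratios scaling, but 6 and 11 in the table with Ig genes. Gpx3, a secreted glutathione peroxidase, was at 0.887, 2.06 and 0.767 in naïve and 55.2, 69 and 65.3 in plasma cell libraries (log2 change 5.26 ± 0.31, adjusted p = 1.1e-07), and Hmox1, heme oxygenase, at 0.217, 0.42 and 0.834 in naïve and 9.19, 7.43 and 7.97 in plasma cell libraries. Metallothionein Mt1 rose in all 3 plasma cell libraries, at 154, 164 and 555, but its highest value was in the replicate with liver transcripts. Autophagy and lysosome genes were higher at 9 of 55 and lower at 12 (15 and 8 under median-of-ratios scaling, 2 and 33 in the table with Ig genes). The shares, 16.4% higher and 21.8% lower, lay near the 11.9% and 27.1% of all tested genes. Wipi1, an early autophagosome protein, was at 0.941, 0.893 and 0.735 in naïve and 31.9, 36.6 and 24.5 in plasma cell libraries. Cathepsin genes Ctsb and Ctsd were higher, with log2 changes of 2.55 and 1.88, and the hexosaminidase gene Hexa lower, at -2.03.

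Translation differed from secretion in its counts. Ribosomal protein genes took 14.3, 15.5 and 14.1% of TPM in naïve B cells and 13.5, 13.2 and 13.5% in plasma cells, and 75 of 81 were not called, with 4 higher and 2 lower (median log2 -0.20), or 6 and 0 under median-of-ratios scaling and 2 and 72 in the table with Ig genes. Ribosomal protein genes have many near-identical pseudogenes, and single members such as Rps27 (log2 change -1.41) and Rpl41 (1.22) are uncertain for that reason. Ribosome biogenesis was lower at 18 of 38 genes and higher at 1 (median log2 -1.0), with 8 lower under median-of-ratios scaling. Besides Myc, its partner Max was at 28.1, 34.1 and 41.2 in naïve and 8.11, 7.62 and 7.26 in plasma cell libraries and the nucleolar factor Noc2l at 64.9, 48 and 67.9 in naïve and 16.6, 13.5 and 7.82 in plasma cell libraries. Of 45 translation factors 5 were higher and 2 lower, and 8 and 0 under median-of-ratios scaling, but 0 and 25 in the table with Ig genes. The share called higher, 11.1%, lay near the 11.9% of all tested genes, and 4.4% were lower, against 27.1%.

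Growth was described next. Of 70 genes of mitosis and DNA replication 49 were higher and 2 lower (median log2 1.99). Mki67 was at 1.58, 2.09 and 3.07 in naïve and 73.5, 73.1 and 52.5 in plasma cell libraries (log2 change 4.62 ± 0.27, adjusted p = 1.1e-07). Cdk1 was at 6.44, 13.4 and 10.4 in naïve and 164, 191 and 147 in plasma cell libraries and Top2a at 15.5, 16.1 and 16.4 in naïve and 87.2, 75 and 77.5 in plasma cell libraries. Pcna, the replication clamp, was not called, at a log2 change of 0.74. The 2 called lower were E2f2 at a log2 change of -1.03, which was not called without naïve replicate 3 (-0.92) or plasma cell replicate 1 (-0.99), and Pold1, at 177, 158 and 157 in naïve and 15.4, 20.3 and 15.8 in plasma cell libraries (log2 change -3.23 ± 0.18, adjusted p = 5.8e-08). Pold1 (chromosome 7, 44532746 to 44548849) is the neighbour of Spib, which fell too. Of 16 regulators of G1 (4 higher and 4 lower under median-of-ratios scaling), 1 was higher, the inhibitor Cdkn2c (from 12 ± 1.4 to 31.8 ± 5.96), and 5 were lower, among them Ccnd3 (from 113 ± 9.33 to 38.4 ± 1.57) and Cdk6 (from 8.58 ± 1.24 to 2.66 ± 0.54). The share called lower, 31.2%, lay near the 27.1% of all tested genes, and 6.2% were higher, against 11.9%.

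Survival genes had 3 of 31 tested genes higher and 11 lower (median log2 -0.50), and 4 and 6 under median-of-ratios scaling. The shares, 9.7% higher and 35.5% lower, compare with 11.9% and 27.1% of all tested genes. The pro-apoptotic Bcl2l11 (chromosome 2, 128126038 to 128162547), which encodes Bim, was at 14.2, 14.8 and 17.2 in naïve and 450.0, 481 and 437 in plasma cell libraries (log2 change 4.84 ± 0.14, adjusted p = 6.3e-10). Bcl2, which Bim binds, was at 57.5, 64.2 and 61.2 in naïve and 6.26, 5.18 and 7.64 in plasma cell libraries (log2 change -3.18 ± 0.17, adjusted p = 5.4e-08). Bcl2l1, which encodes Bcl-xL, was at 5.05, 5.5 and 4.66 in naïve and 22.7, 25.1 and 30.1 in plasma cell libraries (log2 change 2.24 ± 0.26, adjusted p = 2.3e-05). Mcl1, on which plasma cells are known to depend, was at 67.7, 74.1 and 71.8 in naïve and 58.7, 58.4 and 59 in plasma cell libraries and was not called (log2 change -0.28). The genes of the Bcl2a1 family, Bcl2a1b and Bcl2a1d, fell by 2.93 and 2.73 on the log2 scale, and are near copies. Outside the list, the survival kinase genes Pim1 and Pim2 rose by 1.70 and 1.91 on the log2 scale. Bim and its antagonist Bcl-xL were thus both higher, and Bcl2 lower.

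Proteasome genes had 5 of 35 higher, none lower and 31 changes above 0 (median log2 0.66), and 20 were higher under median-of-ratios scaling, but none higher and 4 lower in the table with Ig genes. The share called higher, 14.3%, lay near the 11.9% of all tested genes, whereas none were called lower, against 27.1%. Psmd8 went from 141 ± 3.35 to 328 ± 16.4 and Psmb5, which carries the chymotrypsin-like activity, from 184 ± 4.96 to 403 ± 17.8. The immunoproteasome subunit Psmb8 had a log2 change of -0.10 (adjusted p = 0.28). Interferon-stimulated genes were lower at 23 of 40 and higher at 4 (median log2 -1.31), and 15 and 5 under median-of-ratios scaling. Ifit3 was at 14.4, 14.4 and 10.2 in naïve and 0.117, 0.228 and 0.484 in plasma cell libraries. The 4 that rose were Isg20, Zbp1, Bst2 and Isg15. Isg20 (chromosome 7, 78913424 to 78920396), an RNA exonuclease, was at 29.7, 30.9 and 27.9 in naïve and 721, 780.0 and 825 in plasma cell libraries (log2 change 4.69 ± 0.12, adjusted p = 2.7e-10), and the nucleic acid sensor Zbp1 at 36.4, 42.6 and 39.6 in naïve and 238, 250.5 and 259 in plasma cell libraries.

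Finally, genes were ranked over all 12392 without regard to the lists. Among the 15 largest rises, 5 were in no list: 9430069I07Rik, Tmed6, Rgcc, Hid1 and Ckb. Tmed6, a p24 family member of the secretory pathway, was at 0.898, 0.801 and 0.876 in naïve and 360.3, 386 and 492 in plasma cell libraries (log2 change 8.23 ± 0.42, adjusted p = 3.2e-08). Rgcc, a cell cycle regulator, was at 0.989, 0.682 and 0.804 in naïve and 419, 388 and 339 in plasma cell libraries. Hid1, a Golgi protein of secretory granules, was at 1.21, 0.467 and 0.33 in naïve and 163, 203 and 184 in plasma cell libraries. Ckb, the brain-type creatine kinase, was at 0.367, 0.283 and 0.536 in naïve and 105, 105 and 91.4 in plasma cell libraries. Naïve levels of these 4 were low. Among the 15 largest falls, Serpinb1a and Ms4a4c were joined by Plaur, the urokinase receptor, at 115, 105 and 106 in naïve and 0.316, 0 and 0.759 in plasma cell libraries. Pglyrp1, a peptidoglycan-binding protein, was at 98.7, 95 and 101 in naïve and 0, 0 and 1.06 in plasma cell libraries, and Sorl1, a sorting receptor, at 75.7, 88 and 89.3 in naïve and 0.477, 0.0414 and 0.225 in plasma cell libraries. The 15 largest gains in TPM came to 8.03% of TPM and the 15 largest losses to 8.88%. Gains outside the ER lists included the ferritin light chain Ftl1, at 2445, 2272 and 2145 in naïve and 9910.4, 9685 and 10129.7 in plasma cell libraries, and the exonuclease Rexo2, at 79.9, 70.9 and 76.8 in naïve and 3289.8, 3299.9 and 3263 in plasma cell libraries. The ferritin heavy chain Fth1 went the other way, at 3518, 3449 and 3296 in naïve and 1152, 1159 and 1831 in plasma cell libraries (log2 change -1.35 ± 0.14, adjusted p = 1.2e-05), a call that was lost under median-of-ratios scaling (-0.86). Losses outside antigen presentation and the receptor included actin regulators. Thymosin beta 4, Tmsb4x, was at 8123, 8252 and 7862 in naïve and 1288, 1151 and 1225 in plasma cell libraries. Pfn1 (profilin 1) was at 3349, 3338 and 3129.9 in naïve and 879, 833 and 838 in plasma cell libraries and Coro1a (coronin 1A) at 2592, 2619 and 2566 in naïve and 303, 341 and 267 in plasma cell libraries. The predicted genes Gm10800 and Gm10721 were also among the largest losses, and they belong to families of near-identical copies.

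Shares of TPM were tested for 41 lists. In 38 of them the 3 plasma cell libraries did not overlap with the 3 naïve libraries, 21 higher and 17 lower, each with a two-sided exact permutation p = 0.1, which is the smallest that 3 libraries against 3 can give (adjusted p = 0.108). The 3 that overlapped were MHC class I, mitochondrially encoded genes and translation factors.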

How the data were processed

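RNA was read from sorted cells by full-length cDNA synthesis (SMARTer v4) and Nextera XT libraries, which do not mark strand. The authors pseudoaligned reads with kallisto and deposited TPM per gene symbol with and without Ig genes, together with log2 values made by voom in limma. The submitters' processing notes name mm10. Which library was read on which sequencer is not given in the sources used here. Levels here come from the deposited TPM without Ig genes, and the deposited log2 values served as an alternative.

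The 12392 genes at TPM of at least 1 in at least 3 of the 6 libraries were fitted with voom, a method for counts that was here given TPM (offset 0.5), in limma 3.58.1 (R 4.3.3) to the means of all 3 groups of the series, so that the 9 libraries shared 1 estimate of the spread, with Benjamini-Hochberg adjustment over all genes. A call needed an adjusted p under 0.05 and a fold above 2. Log2 changes are on the log2(TPM + 0.5) scale. The script was tested on simulated data. Scripts ran in Python 3.11.15. Library sizes of 20200000 to 31700000 estimated reads in the 6 libraries were recovered from the log2 value that genes at TPM 0 share in a library, and are estimates. Gene positions come from GENCODE M21 (GRCm38; 12225 of the 12392 genes matched by symbol), promoters from RefSeq (GRCm38.p6).

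The members and lists were chosen with earlier results of these data known. Named were up to 5 called genes with the largest rise and up to 5 with the largest fall in each list, the 15 largest changes and the 15 largest gains and losses among all genes, cell type markers, and members that were not called. Others, named for their role, a promoter match or a shift with plasma cell replicate 3, were chosen after their values were seen. Alternatives covered scaling, filters, offsets, the table with Ig genes, library weights, a replicate block and each library left out. NP-binding B cells entered only the fit. A few genes are not reported here.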

Additional observations from a re-analysis of the deposited data

How the results depend on the processing

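Against 1469 genes higher and 3363 lower, median-of-ratios scaling gave 2311 and 1817, quantile normalization 2063 and 2051, the table with Ig genes 537 and 7904, and a mean TPM of at least 10 gave 970 and 1949, fewer genes being tested. Other settings stayed within 1.5 times of both counts. Leaving out 1 library at a time gave 1395 to 1515 genes higher and 3203 to 3519 lower. A replicate block gave 1497 and 3351; same-numbered libraries deviated together only weakly (r = 0.068, 0.090 and 0.010, none over 0.1), so the numbers were not taken to pair the libraries. Each naïve library correlated best with its own number, but plasma cell replicate 3 did so with naïve replicate 1 (0.021). Under the block Apoa2 and Slc7a5 were called and Lgals3 was not.

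Of 234 genes followed, 207 of them called, 220 kept direction and call without each replicate in turn. Gstm1 turned without plasma cell replicate 3, its range over the libraries left out being -2.12 to 1.83. With Ig genes kept, Ero1lb (-0.085), Ldha (-1.19), Psmb5 (-0.10), Psmd8 (-0.011) and Ptpn22 (-0.16) turned among changes called in either table; every TPM then falls by the share that Ig takes. No other setting turned a followed change called in it or in the full comparison. Genes with low TPM are limited by depth.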

Other observations

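Members of 1 family went opposite ways in limma's fit at several places. Besides Impdh1 and Impdh2, Rrm2 and Rrm2b, Ell2 and Ell3, and Cd80 and Cd86, the sphingosine phosphate receptors differed: S1pr2 was at 1.0, 0.588 and 0.855 in naïve and 5.03, 5.18 and 4.01 in plasma cell libraries (log2 change 1.99 ± 0.36, adjusted p = 0.00059), against the fall of S1pr1 given above. Of the peroxide-handling genes, Gpx7, an ER glutathione peroxidase, was at 1.79, 1.45 and 0.557 in naïve and 12, 13.5 and 7.32 in plasma cell libraries (log2 change 2.72 ± 0.36, adjusted p = 6e-05).

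A cytokine gene was found among the higher members of the list of secreted and surface products. Il10, which encodes the anti-inflammatory interleukin 10, was at 0.104, 0.199 and 0.351 in naïve and 10.6, 9.72 and 5.25 in plasma cell libraries (log2 change 3.60 ± 0.39, adjusted p = 1.2e-05), so that every naïve library was under 1 TPM. These genes were singled out after their values were seen.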
